A study of Mus musculus with 77 samples.

Results

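Flt3 and Kit are the genes of a pair of related receptors on blood stem and progenitor cells, and the enhancers described here are the regions that the authors' deposited table assigns to either gene. All rows whose gene entry is Flt3 or Kit were taken, with no filter, which gave 28 of the 44002 enhancers in the table: 17 for Flt3 and 11 for Kit. The cells were sorted from mouse bone marrow. The groups used here are LSK cells (wild type, gated Lin-, Sca-1+ and ckit, with no sign given for ckit), preGM (wild type, ckit+, Sca-1-, CD150- and CD105-), GMP (wild type, ckit+, Sca-1-, CD150- and FcgRII/III+), granulocytes (wild type, Mac1+Gr-1+) and preGM of CEBPA KO mice sorted with the preGM gate. LSK cells hold the stem and multipotent cells, preGM and GMP are successive progenitors of granulocytes and monocytes, and CEBPA is a transcription factor needed on that path. The labels name the knockout only as CEBPA KO, so the allele, any Cre, the age of the mice and the pooling of animals are unstated here.

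For each enhancer the table holds 1 value per group, in the authors' signal units, for the histone marks H3K27ac and H3K4me1 in all 5 groups, for the factor PU.1 in all but granulocytes, and for CEBPA in wild type preGM. H3K27ac marks active enhancers, and H3K4me1 marks enhancers that are active or poised. The labels list 2 libraries for each of these 15 combinations, but the table does not separate them. There are therefore no replicate values, no error and no test of any difference below, and the sequencing depth is unknown. For each gene the table also gives expression in the same groups.

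FLT3 and KIT are class III receptor tyrosine kinases, relatives of the receptors for CSF1 and PDGF. Each dimerises when its ligand binds and then signals through the RAS, PI3 kinase and STAT pathways. FLT3 ligand acts on multipotent, lymphoid and dendritic cell progenitors, while stem cell factor, the ligand of KIT, maintains stem cells, early progenitors and mast cells.

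All 28 enhancers lie on chromosome 5 in build mm9. The 17 Flt3 enhancers, numbered here Flt3-1 to Flt3-17 by position, lie between 148174744 and 148211998, and their starts span 37.1 kb. The 11 Kit enhancers, Kit-1 to Kit-11, lie between 75970940 and 76128641, with starts spanning 157 kb. The deposited regions are short, with a median width of 163 bp for Flt3 (range 52 to 579) and 142 bp for Kit (range 63 to 586). Several are near neighbours: 364 bp separate Flt3-16 from Flt3-17, 222 bp separate Flt3-8 from Flt3-9, 229 bp separate Flt3-1 from Flt3-2, and 570 bp separate Kit-1 from Kit-2. Such neighbours can share the same DNA fragments, so a pair is not 2 independent measurements. The table gives no exon or intron annotation, and no genome of its build was used here.

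The start regions of both genes are shown because PU.1 and CEBPA, the factors measured at the enhancers, are sequence-specific. These are the 250 bases before each RefSeq gene start, from build GRCm38.p6, which is not the build of the enhancers, at chr5:147400490-147400739 (minus strand) for Flt3 and chr5:75574737-75574986 (plus strand) for Kit. Each reads 5′ to 3′ on the strand of the gene, with GGAA, the core that PU.1 and other ETS factors recognise, in capitals on either strand (TTCC where it lies on the opposite strand).
Flt3: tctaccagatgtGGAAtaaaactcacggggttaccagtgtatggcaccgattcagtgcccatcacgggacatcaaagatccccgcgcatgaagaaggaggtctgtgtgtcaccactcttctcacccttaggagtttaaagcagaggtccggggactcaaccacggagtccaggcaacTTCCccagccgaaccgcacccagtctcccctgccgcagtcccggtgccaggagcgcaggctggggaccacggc
Kit: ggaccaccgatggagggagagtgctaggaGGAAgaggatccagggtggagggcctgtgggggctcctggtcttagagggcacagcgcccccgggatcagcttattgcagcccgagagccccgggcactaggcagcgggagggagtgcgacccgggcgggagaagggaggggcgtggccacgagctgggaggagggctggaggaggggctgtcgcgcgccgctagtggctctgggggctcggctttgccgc
The Flt3 window holds 2 such cores and the Kit window 1, where the median of 27025 promoter windows of the same length is 3 and 93.4% hold at least 1. Neither window holds the PU.1 sequence GAGGAAGT, found in 2.44% of windows, nor the C/EBP sequences TTGCGCAA (0.17%), TTGCGTAA (0.148%) or TTGCNNAA (9.55%, which includes the other C/EBP sequences). Neither holds the GATA sequence AGATAA (10.3%), the RUNX sequence TGTGGT (14.2%) or the E-box CAGCTG (12.8%). All were searched on both strands, and GAGGAAGT contains the core GGAA. G and C made up 59.2% of the Flt3 window and 70.8% of the Kit window, against a median of 52% over all windows.

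The knockout is visible in the expression values, where Cebpa read 48.3 in KO preGM and 208 in wild type preGM. The median of the stem cell list declined along the stages, and that of the neutrophil list was highest in granulocytes. The median of 10 stem and multipotent progenitor genes was 1065 in LSK, 550 in preGM, 87.9 in GMP and 29.3 in granulocytes. The median of 11 secondary granule and neutrophil genes was 33.8, 184, 116 and 5156 in the same order. Of 6 B cell markers 3 were in the table, and each stayed below the median gene in the 4 stages. Other lists were less clear in granulocytes, where the median gene read 90.6. Above it were 4 of 10 stem and multipotent progenitor genes, 7 of 8 monocyte and macrophage genes and 3 of 4 megakaryocyte genes. Whether other cells were in the granulocyte sort was not tested. The deposited expression values carry no stated unit and come as a set of 4 stages and a separate wild type and KO pair, whose wild type preGM values differ from those of the stage set (Pearson r of log2 values 0.78 across 10096 genes). Values are therefore compared only within a set, except in the search for genes with like profiles at the end.

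Flt3 expression was highest in LSK and lowest in granulocytes, and the widest step lay between preGM and GMP. It read 2970 in LSK, 1894 in preGM, 146 in GMP and 58.8 in granulocytes, which placed it above 97.9%, 95.0%, 55.1% and 40.4% of the 10096 genes. The log2 ratio, computed with 30 added to both values, was -0.64 for preGM over LSK, -3.45 for GMP over preGM and -0.99 for granulocytes over GMP. The ratio for GMP over preGM was the 6th lowest of 10096 genes, of which 3.19% were at least 2-fold lower.

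Kit followed another course, with like values through the progenitors and a decline at the last step. It read 922 in LSK, 912 in preGM, 841 in GMP and 111 in granulocytes, with log2 ratios of -0.02, -0.11 and -2.63 for the 3 steps. At the last step 19.7% of genes were at least 2-fold lower, and Kit ranked 368th from the lowest. Surface KIT was part of the preGM and GMP gates, so its presence in these cells follows from the sort. Flt3 was in none of the gates.

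**Figure D1:**
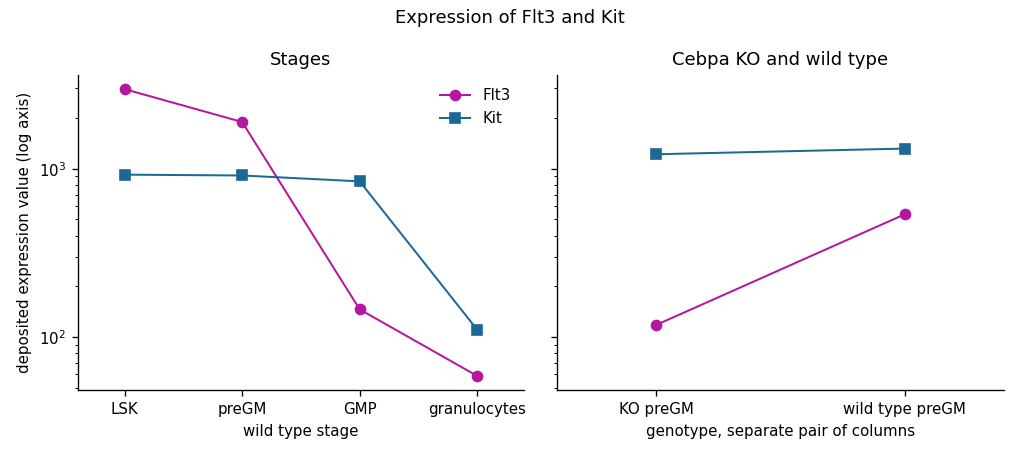
Deposited expression value of Flt3 (circles) and Kit (squares) on a log axis, with no stated unit; the left panel has the 4 wild type stages and the right panel the separate pair of KO and wild type preGM columns, 1 value per group. Flt3 read 146 in GMP against 1894 in preGM, and 118 in KO preGM against 536 in wild type preGM, while Kit read 1219 in KO preGM and 1317 in wild type preGM. Surface KIT, but not Flt3, was part of the gate of both preGM groups.

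In CEBPA KO preGM the expression of Flt3 was lower than in wild type preGM, and that of Kit differed little. Flt3 read 118 in KO preGM and 536 in wild type preGM, a log2 ratio of -1.69 with 70 added to both values, which was the 9th lowest of 10096 genes, 0.307% of which were at least 2-fold lower. The log2 ratio was -1.03 with a pseudocount 4 times larger. Kit read 1219 in KO preGM and 1317 in wild type preGM, a log2 ratio of -0.11. Both groups were sorted with the preGM gate, which includes ckit+, so the presence of KIT in both follows from the sort. Flt3 was not in that gate, so the 2 genes are not on a like footing here. Other lists differed between the same columns. The median of 8 monocyte and macrophage genes was 68.2 in KO preGM and 279 in wild type preGM, with sums of 549 and 3176. The median of 4 primary granule genes was 145 in KO preGM and 1231 in wild type preGM, with sums of 4714 and 9107. Of 11 secondary granule and neutrophil genes 9 were lower in the KO, with sums of 569 in KO preGM and 1824 in wild type preGM. Not lower were all 4 megakaryocyte genes, with sums of 612 and 498, and all 3 B cell genes. The same held for the 1 erythroid gene and the 1 T and NK cell gene present. The median of the 10 stem and multipotent progenitor genes was 237 in KO preGM and 199 in wild type preGM, while their sum was 3487 in KO preGM and 4448 in wild type preGM, with 7 of the 10 lower in the KO. Among them Cd34 read 873 in KO preGM and 1659 in wild type preGM, and Hlf read 260 and 559. The 3 that were not lower were Ly6a, with 229 in KO preGM and 128 in wild type preGM, Erg, with 885 and 748, and Gata2, with 245 and 215. Of 4 dendritic cell markers, a list that includes Flt3, Tcf4 read 353 in KO preGM and 377 in wild type preGM, and Itgax read 64.0 in KO preGM and 58.1 in wild type preGM. No marker was at 0, as the lowest value in the 6 expression columns was 2.04. In sorted populations, fewer cells that express a gene and less RNA per cell cannot be told apart, and the part of such a shift in the Flt3 value was not tested.

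In LSK and preGM the strongest H3K27ac lay at one end of each locus. Flt3 is on the minus strand and Kit on the plus strand, so each is the upstream end of its set. The gene starts shown above are of another build, so distances from these regions to the starts were not measured. Whether the 4 regions lie at or near a promoter was therefore not tested. Flt3-16 (chr5:148211113-148211523) and Flt3-17 (chr5:148211887-148211998) had the highest signal of the Flt3 set in LSK and preGM, and Kit-1 (chr5:75970940-75971486) and Kit-2 (chr5:75972056-75972198) had the highest of the Kit set in LSK, preGM and GMP. Flt3-17 read 7.58 in LSK, 10.8 in preGM, 2.46 in GMP and 0.50 in granulocytes. Flt3-16 read 6.69, 9.37, 1.94 and 0.39 in the same order. These values were above those of 99.3% and 98.9% of all enhancers in preGM, of 77.2% and 70.2% in GMP and of 9.52% and 3.97% in granulocytes, so both regions stood near the top of the table in preGM, above its median in GMP and near its bottom in granulocytes.

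Kit-1 read 3.65 in LSK, 7.03 in preGM, 8.51 in GMP and 2.08 in granulocytes. Kit-2 read 2.49, 5.59, 6.61 and 1.16 in the same order. Both Kit regions had their highest deposited value in GMP, where both Flt3 regions were below their own preGM values. The median enhancer of the table was also higher in GMP than in preGM, and relative to it Kit-1 and Kit-2 were at log2 ratios of -0.04 and -0.08. Kit-1 was above 94.5% of all enhancers in GMP and 97.6% in preGM, and Kit-2 above 92.1% in GMP and 96.2% in preGM. The other 15 Flt3 enhancers and the other 9 Kit enhancers had at most 2.28 in any of the 4 stages. In GMP Flt3-14 with 2.24 and Flt3-8 with 2.01 were above Flt3-16, and in granulocytes Flt3-13 with 1.5 was above both strong Flt3 regions and Kit-7 with 1.37 above Kit-2.

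Flt3-16 and Flt3-17 together held 46.5% of the H3K27ac summed over the 17 Flt3 enhancers in LSK, 55.3% in preGM, 21.6% in GMP and 8.78% in granulocytes. Kit-1 and Kit-2 held 39.6%, 55.8%, 53.7% and 32.9% of the sum over 11 enhancers.

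**Figure D2:**
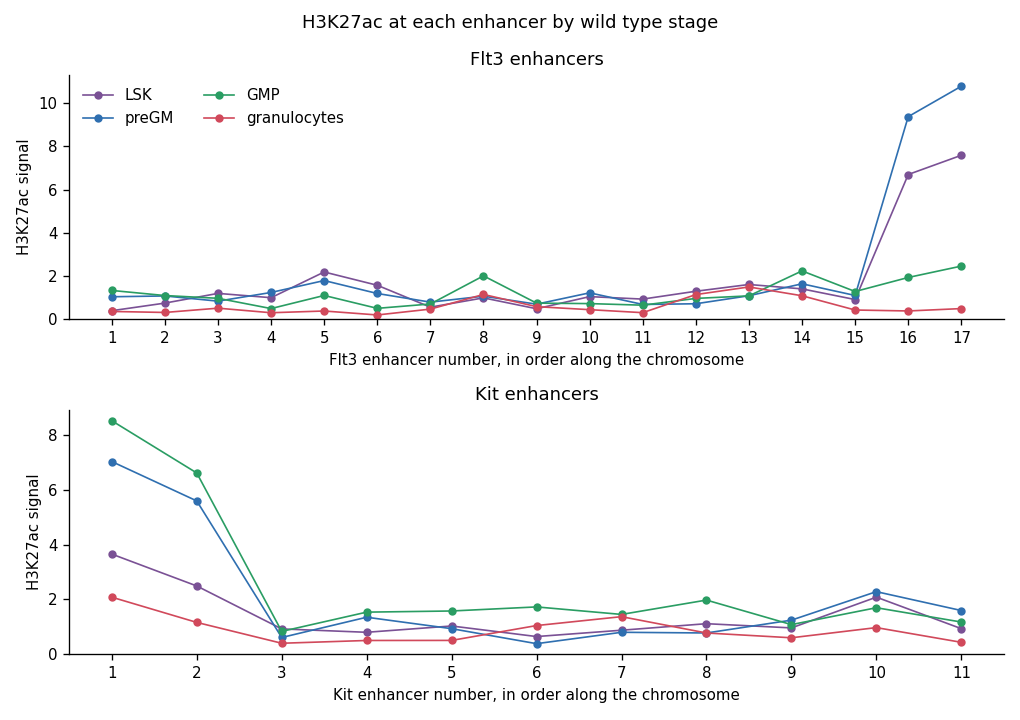
H3K27ac signal (authors' units) at each of the 17 Flt3 enhancers (top) and 11 Kit enhancers (bottom), numbered by position, with 1 line per wild type stage and 1 pooled value per point. Flt3-16 and Flt3-17 stand above the rest in LSK and preGM (6.69 to 10.8) and not in granulocytes (0.39 and 0.50), while the values of Kit-1 and Kit-2 are highest in GMP (8.51 and 6.61), where relative to the median enhancer they are slightly below preGM (log2 ratios of -0.04 and -0.08).

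Differences between stages were read as log2 ratios of signal with 0.7 added for H3K27ac, 2 for H3K4me1 and 0.6 for PU.1. The median ratio of all enhancers was 0.29 for H3K27ac in GMP over preGM, 0.14 in granulocytes over GMP, 0.21 and 0.32 for H3K4me1 in these steps, 0.10 for H3K4me1 in KO over wild type preGM, 0.30 for PU.1 in preGM over LSK and -0.27 for PU.1 in KO over wild type preGM. The ratios given for enhancers are after subtraction of that median, while counts use the unsubtracted ratio unless stated.

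From LSK to preGM the acetylation of the strong regions was higher at both genes, short of 2-fold once 0.7 was added to both values. As deposited, Kit-2 was more than 2-fold higher, with 5.59 in preGM and 2.49 in LSK. With a pseudocount 4 times smaller, 1 enhancer of each gene was counted as higher. Of the 17 Flt3 and 11 Kit enhancers, 0 were at least 2-fold lower and 0 at least 2-fold higher, against 0.364% and 0.72% of all enhancers. Kit-2 and Kit-1 had the highest ratios of the 28, at 0.95 and 0.80, followed by Flt3-1 at 0.64, Kit-11 at 0.46 and Flt3-17 at 0.44. In this step Flt3 acetylation and expression went opposite ways: Flt3-17 read 10.8 in preGM and 7.58 in LSK, while Flt3 expression read 1894 in preGM and 2970 in LSK. The lowest ratios were at Flt3-12 (-0.52) and Flt3-13 (-0.39), and Kit-6 and Kit-3 were both at -0.33.

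Between preGM and GMP, 2 of 17 Flt3 enhancers had at least 2-fold lower H3K27ac, against 0.411% of all enhancers, and these were Flt3-16 and Flt3-17. Their ratios of -2.23 and -2.15 were the 3rd and 4th lowest of 44002. The other 15 Flt3 enhancers ranged from -0.99 at Flt3-4 to 0.32 at Flt3-8, whose H3K27ac read 2.01 in GMP and 1.07 in preGM. Among Kit enhancers 1 of 11 was at least 2-fold higher, against 9.21% of the table. This was Kit-6, with 1.73 in GMP and 0.39 in preGM, and after subtraction its ratio of 0.87 was no longer 2-fold, as the ratios of 2.77% of the table were. Kit-10 and Kit-11, the most distant Kit enhancers, had the lowest Kit ratios, at -0.61 and -0.59.

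Between GMP and granulocytes, H3K27ac was lower in granulocytes at 26 of the 28 enhancers (15 of 17 for Flt3, 11 of 11 for Kit), where 42.1% of all enhancers were lower. At least 2-fold lower were 2 Flt3 and 2 Kit enhancers, against 6.05% of the table, and 3 Flt3 and 4 Kit enhancers after subtraction, against 8.24%. Before subtraction, 0 Flt3 enhancers were counted with a pseudocount 4 times larger. The 4 strong regions led, with ratios of -2.11 at Kit-2, -1.87 at Kit-1, -1.54 at Flt3-17 and -1.41 at Flt3-16. Those of Kit-2 and Kit-1 were the 288th and 495th lowest of 44002. The 2 enhancers that were not lower were Flt3-12, with 1.15 in granulocytes and 0.97 in GMP, and Flt3-13, with 1.5 and 1.09.

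H3K4me1 did not follow H3K27ac in every step at the strong regions. Flt3-17 had high H3K4me1 signal also in the stages where its acetylation was lower, with 6.58 in LSK, 5.15 in preGM, 9.25 in GMP and 8.65 in granulocytes. Its level was above that of 99.3% of all enhancers in GMP and of 85.6% in granulocytes. Flt3-16 read 4.23, 3.71, 5.43 and 4.25 in the same order, above 82.8% of all enhancers in GMP and 35.8% in granulocytes. In granulocytes over GMP the H3K4me1 ratios were -0.57 at Flt3-16 and -0.40 at Flt3-17, so in that step both marks were lower at this pair.

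The 2 marks differed more widely at Kit. Kit-1 read 4.36 in LSK, 3.36 in preGM, 4.79 in GMP and 14.9 in granulocytes, and Kit-2 read 2.18, 2.16, 3.43 and 11.1. In granulocytes these were above 99.6% and 95.9% of all enhancers. So the 2 Kit enhancers with the lowest H3K27ac ratios between granulocytes and GMP had the highest H3K4me1 ratios of the 28, 0.99 and 0.95. Whether the 2 marks lay on the same cells or alleles was not measured.

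No Flt3 or Kit enhancer was 2-fold different in H3K4me1 in the first 2 steps (0 of 28 in each direction), where 0.00682% and 0.00227% of all enhancers were lower and 0.00227% and 0.855% higher. The lowest H3K4me1 ratio from LSK to preGM was -0.65 at Kit-10, which read 3.83 in preGM and 7.54 in LSK. In granulocytes against GMP, 1 Flt3 enhancer was at least 2-fold lower, against 2.81% of the table, and 2 Kit enhancers, Kit-1 and Kit-2, were at least 2-fold higher, against 9.69%. The Flt3 enhancer was Flt3-4, with 0.62 in granulocytes and 3.71 in GMP. After subtraction 8 Flt3 and 7 Kit enhancers were at least 2-fold lower, against 10.2% of the table, and 0 Kit enhancers at least 2-fold higher, against 3.43%. Before subtraction, 0 Flt3 and 0 Kit enhancers were counted in either direction with a pseudocount 4 times larger. H3K4me1 was lower in granulocytes at 23 of the 28 enhancers, where 31.8% of all enhancers were lower.

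The 5 exceptions were Kit-1, Kit-2, Flt3-8, Flt3-9 and Flt3-14. The last 3 are the only Flt3 enhancers to which the authors' table assigns CEBPA binding. H3K4me1 at Flt3-8 read 5.45 in granulocytes and 3.97 in GMP, at Flt3-9 it read 4.38 and 3.0, and at Flt3-14 it read 5.31 and 3.63. After subtraction these 3 were near the median enhancer, at -0.0058, 0.03 and 0.05, so the direction at Flt3-8 turned. All 14 Flt3 enhancers without assigned CEBPA were lower in granulocytes, for instance Flt3-7 with 0.19 in granulocytes and 1.93 in GMP. Among all enhancers, 16.8% of the 9449 enhancers with assigned CEBPA and 35.9% of the other 34553 were lower in granulocytes. This split of the Flt3 enhancers was chosen after the values were seen.

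**Figure D3:**
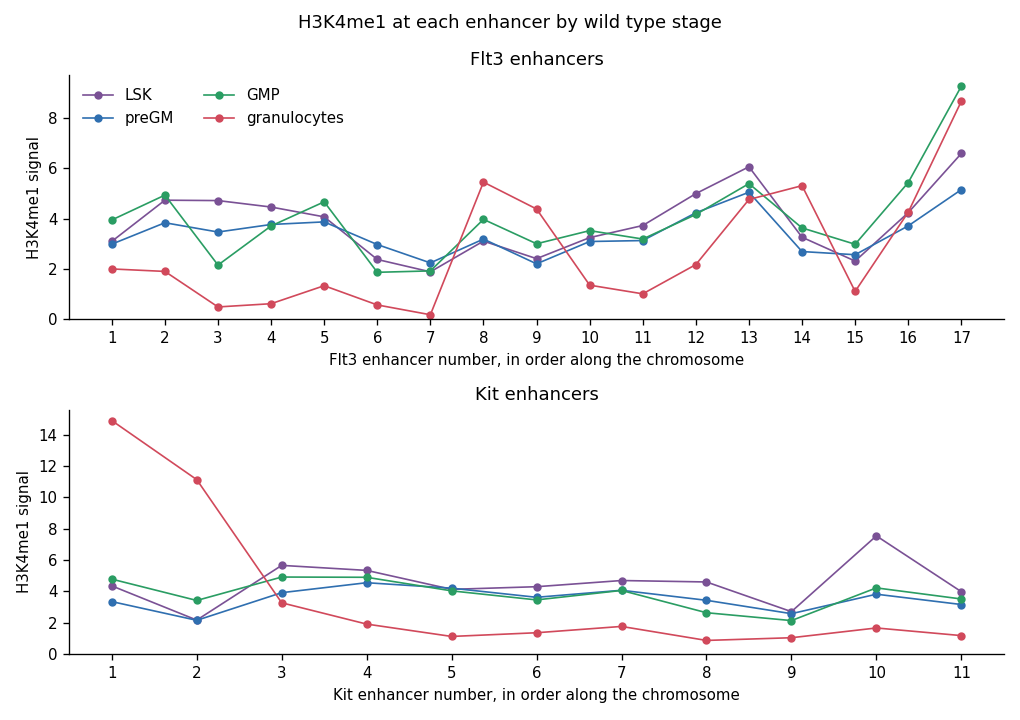
H3K4me1 signal (authors' units) at each Flt3 enhancer (top) and Kit enhancer (bottom), numbered by position, with 1 line per wild type stage and 1 pooled value per point. In granulocytes the signal is highest at Kit-1 (14.9) and Kit-2 (11.1) and lies above the GMP line at Flt3-8, Flt3-9 and Flt3-14, while it lies below that line at the other 14 Flt3 enhancers.

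**Figure D4:**
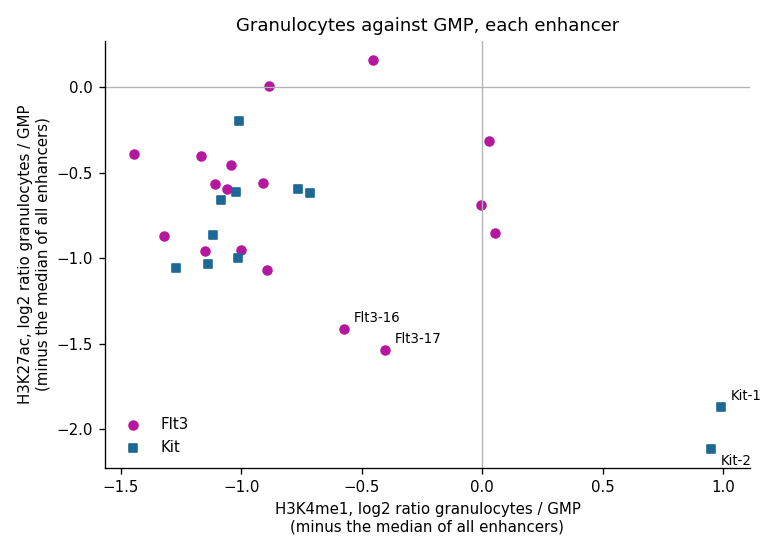
Log2 ratio of granulocytes over GMP at each of the 28 enhancers, after subtraction of the median of all enhancers, for H3K4me1 (horizontal axis) and H3K27ac (vertical axis). Kit-1 and Kit-2 stand apart at the lower right, with H3K4me1 ratios of 0.99 and 0.95 and H3K27ac ratios of -1.87 and -2.11.

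The authors' table assigns PU.1 or CEBPA to some Flt3 enhancers and to no Kit enhancer. Of the 17 Flt3 enhancers it assigns both PU.1 and CEBPA to 2 (Flt3-8 and Flt3-9), CEBPA alone to 1 (Flt3-14), PU.1 alone to 4 (Flt3-1, Flt3-2, Flt3-5 and Flt3-17) and neither to 10. These are 11.8%, 5.88%, 23.5% and 58.8% of the Flt3 enhancers, near the 9.21%, 12.3%, 19.1% and 59.5% of the table in the same classes. All 11 Kit enhancers are in the class with neither. CEBPA signal in wild type preGM was 2.92 at Flt3-8, 2.71 at Flt3-9 and 1.94 at Flt3-14, above 98.3%, 98.0% and 96.6% of all enhancers. The highest Kit value was 0.885 at Kit-4, above 84.2%. The strongly acetylated pair of Flt3 regions had less CEBPA signal, with 0.877 at Flt3-17, above 83.9% of all enhancers, and 0.47 at Flt3-16, above 39.7%.

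PU.1 was strongest at Flt3-17, which read 7.40 in LSK, 9.65 in preGM and 8.17 in GMP. In GMP over preGM its log2 PU.1 ratio was -0.22 and its log2 H3K27ac ratio -1.86, both before subtraction. Flt3-16, its neighbour, read 1.17, 0.967 and 0.495 for PU.1. The highest Kit enhancer, Kit-3, read 1.62, 2.72 and 2.48.

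In preGM against LSK, PU.1 was at least 2-fold higher at 4 of 17 Flt3 enhancers and 0 of 11 Kit enhancers, against 6.56% of the table, and 0 of the 28 were at least 2-fold lower, against 0.0364%. These 4 were Flt3-1 with 6.73 in preGM and 2.78 in LSK, Flt3-2 with 6.21 and 2.75, Flt3-8 with 3.84 and 1.22, and Flt3-9 with 3.45 and 0.881. They form 2 close pairs, of which Flt3-1 and Flt3-2 lack assigned CEBPA and Flt3-8 and Flt3-9 have it. After subtraction only Flt3-9 was still 2-fold higher, with a ratio of 1.15, against 2.2% of the table, and Flt3-8 had 0.99. Before subtraction, 0 of the 17 Flt3 enhancers were counted with a pseudocount 4 times larger. Between preGM and GMP 0 of the 28 enhancers were 2-fold different in PU.1, where 0.775% of the table was lower and 0.768% higher. The lowest ratio was -0.82 at Flt3-5, which read 2.24 in GMP and 4.67 in preGM.

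In CEBPA KO preGM, the 2 Flt3 enhancers with the highest acetylation had less of it, and 6 of the 17 were not lower. Flt3-14, the next by mean H3K27ac, read 1.94 in KO preGM and 1.65 in wild type preGM, a ratio of 0.13. Flt3-13 read 1.59 and 1.10, a ratio of 0.30. H3K27ac at Flt3-17 read 4.27 in KO preGM and 10.8 in wild type preGM, and at Flt3-16 it read 3.77 and 9.37. These 2 of 17 Flt3 enhancers were at least 2-fold lower, against 0.47% of the table, and 0 were at least 2-fold higher, against 0.441%. Their ratios of -1.25 and -1.22 were the 39th and 53rd lowest of 44002. Their KO levels were also below those of wild type LSK, 7.58 and 6.69. This comparison and that of GMP with preGM share the wild type preGM values. With a pseudocount 4 times larger neither was counted as 2-fold lower.

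Of the Kit enhancers, 0 of 11 were 2-fold different in H3K27ac in each direction in the KO, against 0.47% lower and 0.441% higher in the table. With shares this small, 0 of 11 is not a result about Kit. H3K27ac was lower in the KO at 7 of 11 Kit and 11 of 17 Flt3 enhancers, where 45.2% of all enhancers were lower. The median ratio was -0.19 for Kit and -0.11 for Flt3. Kit-1 read 6.30 in KO preGM and 7.03 in wild type preGM, and Kit-2 read 3.52 and 5.59, with ratios of -0.19 and -0.62. The highest ratio of the 28 was 0.45 at Kit-8, with 1.39 in KO preGM and 0.776 in wild type preGM. Flt3-16 and Flt3-17 held 34.4% of the summed Flt3 signal in KO preGM against 55.3% in wild type preGM, and Kit-1 and Kit-2 held 49.8% of the summed Kit signal against 55.8%.

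H3K4me1 at the same strong regions was higher in KO preGM. Flt3-17 read 7.35 in KO preGM and 5.15 in wild type preGM, Flt3-16 read 5.42 and 3.71, Kit-1 read 4.91 and 3.36, and Kit-2 read 3.74 and 2.16. The ratios were 0.28, 0.27, 0.26 and 0.36, the highest 2 of each gene. The lowest were -0.46 at Flt3-9 and -0.43 at Flt3-8, which read 1.28 and 2.14 in KO preGM against 2.21 and 3.19 in wild type preGM and were the 539th and 735th lowest of 44002. None of the 28 was 2-fold different, where 0.00909% of the table was lower.

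PU.1 in the KO was lower at 2 close pairs of Flt3 enhancers. At least 2-fold lower were 4 of 17 Flt3 enhancers and 0 of 11 Kit enhancers, against 6.15% of the table, and 0 of the 28 were at least 2-fold higher, against 0.0955%. Flt3-8 read 0.753 in KO preGM and 3.84 in wild type preGM, and Flt3-9 read 0.678 and 3.45, with ratios of -1.45 and -1.40, the 160th and 187th lowest of 44002. Both KO values were below those of wild type LSK, 1.22 and 0.881. Flt3-1 read 2.69 in KO preGM and 6.73 in wild type preGM, and Flt3-2 read 2.74 and 6.21, where LSK had 2.78 and 2.75.

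The comparison of preGM with LSK uses the same wild type preGM values, so the values at these 4 enhancers in the 2 comparisons are not independent. After subtraction only Flt3-8 and Flt3-9, the pair with assigned PU.1 and CEBPA, were at least 2-fold lower, against 1.99% of the table. Among the 4054 enhancers of that class 27.7% were at least 2-fold lower before subtraction, against 14.3% of the 8387 with PU.1 alone. With a pseudocount 4 times larger none of the 4 was counted.

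Flt3-17, with the strongest PU.1 signal of the 28, differed less, with 6.87 in KO preGM and 9.65 in wild type preGM (ratio -0.19). Flt3-16, with no assigned PU.1, read 1.06 in KO preGM and 0.967 in wild type preGM, a ratio of 0.35, or 0.08 before subtraction. Wild type CEBPA signals at Flt3-16 and Flt3-17 were 0.47 and 0.877. Whether either factor bears on the lower acetylation of these 2 regions in the KO was not tested. PU.1 was higher in KO preGM at Flt3-12, with 1.56 in KO preGM and 0.719 in wild type preGM, and at Flt3-11, with 0.791 and 0.411, ratios of 0.97 and 0.73. The Kit enhancers ranged from -0.41 at Kit-1 to 0.54 at Kit-8.

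**Figure D5:**
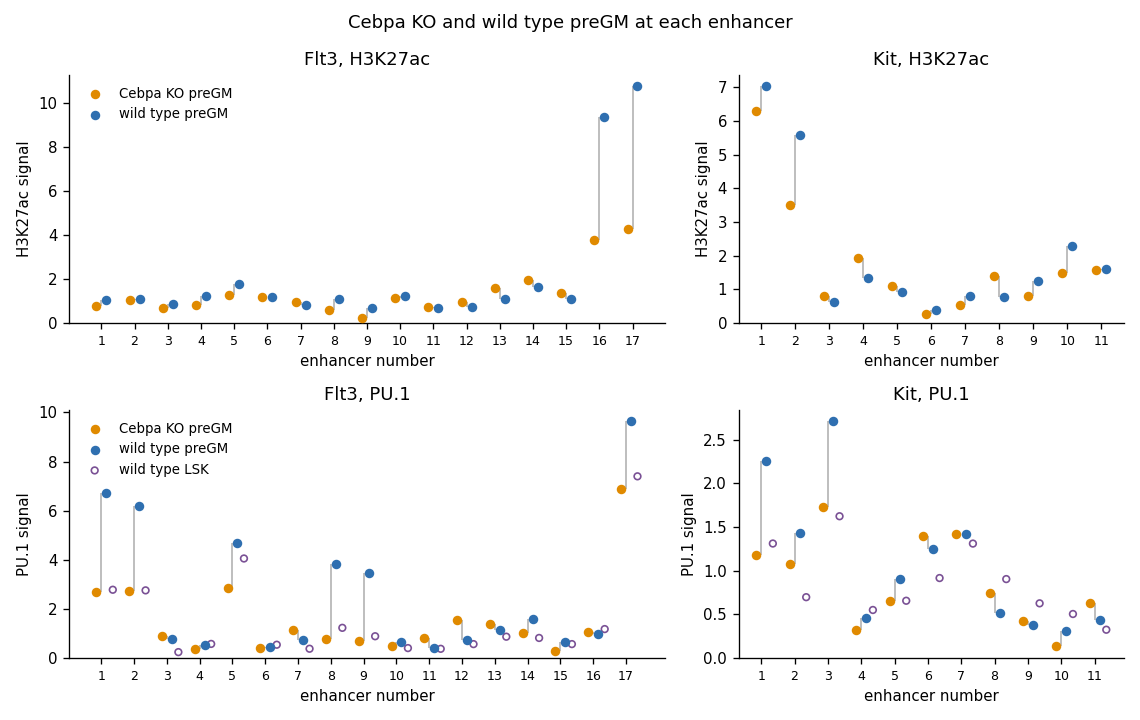
H3K27ac (top) and PU.1 (bottom) signal at each Flt3 enhancer (left) and Kit enhancer (right) in CEBPA KO preGM (orange) and wild type preGM (blue), with wild type LSK as open circles for PU.1; each point is 1 pooled value in the authors' units, and the vertical scales differ. H3K27ac is lower in KO preGM at Flt3-16 (3.77 against 9.37) and Flt3-17 (4.27 against 10.8), and PU.1 is lower in KO preGM at Flt3-1, Flt3-2, Flt3-8 and Flt3-9.

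In the authors' stage classes, 17 of the 28 enhancers (60.7%) are of preGM and GMP, against 29.1% of the table. Of the 17 Flt3 enhancers 12 are classed as preGM and GMP, 3 as GMP, 1 (Flt3-8) as GMP and granulocytes and 1 (Flt3-14) as all 4 stages. Of the 11 Kit enhancers 5 are classed as preGM and GMP, 4 as LSK, preGM and GMP, 1 (Kit-1) as GMP and 1 (Kit-2) as GMP and granulocytes. Of all enhancers 17.2% are classed as GMP, 11.3% as LSK, preGM and GMP, 7.06% as GMP and granulocytes and 4% as all 4 stages. None of the 28 is classed as granulocytes alone, as 21.2% of the table is. The authors' criterion for these classes is unstated in the sources used here. The authors' separate 0 or 1 stage flags do not always match the class. They mark 22 of the 28 enhancers (78.6%) in preGM and 15 (53.6%) in GMP, against 49.8% and 51.5% of the table. Flt3-16 and Flt3-17 are classed as preGM and GMP but are flagged in preGM and not in GMP. A class that names GMP thus does not by itself show a flag in GMP.

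The genes whose expression was most like that of Flt3 were sought among 5048 genes at or above the median level, by distance between log2 profiles centred over the 6 expression columns. This measure sets the stage and KO columns against each other, and so also carries the difference between the sets. The nearest 5 were 2900026A02Rik, Jakmip1, Ppp1r9a, which encodes an actin-binding protein, Spns2, a transporter of sphingosine 1-phosphate, and Snn, at distances of 1.88 to 2.41. All 5 read lower in GMP than in preGM, as with 2900026A02Rik at 764 in LSK, 430 in preGM, 65.1 in GMP and 29.1 in granulocytes. These 5 were picked on the same columns, so that shared direction follows from the choice. The lowest in the KO relative to the wild type was Ppp1r9a, with 81.1 in KO preGM and 110 in wild type preGM, against 118 and 536 for Flt3. With profiles centred within each set, 2 of these 5, 2900026A02Rik and Jakmip1, were still among the nearest 5. The nearest was then Meis1, a homeobox factor of stem cells, with 1096 in LSK, 797 in preGM, 88.6 in GMP and 29.3 in granulocytes, and with 640 in KO preGM and 695 in wild type preGM.

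The nearest to Kit were Eif4a1, an RNA helicase of translation initiation, Eprs, a tRNA synthetase, Rps26, a ribosomal protein, Hnrnpa1, an RNA-binding protein, and Rnf168, a ubiquitin ligase of the DNA damage response, at distances of 0.42 to 0.48. Eif4a1 read 3182 in LSK, 2696 in preGM, 2399 in GMP and 445 in granulocytes. Centred within each set, 1 of these 5, Hnrnpa1, was still among the nearest 5, so most of the genes named for either receptor depend on the centring. Rps26 and Hnrnpa1 have close copies in the genome that can share reads.

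Of 36 genes that act with or below the receptors, 34 were in the table. In preGM against LSK the expression of 3 was at least 2-fold lower and of 2 at least 2-fold higher, against 0.891% and 1.88% of all genes. Csf1r, the CSF1 receptor of the same class, read 3824 in preGM and 1005 in LSK, and Sos1, an activator of RAS, read 342 and 143. Lower were Socs3, a feedback inhibitor of cytokine signalling, with 237 in preGM and 1018 in LSK, Pik3cd, a catalytic subunit of PI3 kinase, with 467 and 1154, and Spry1, an inhibitor of RAS signalling, with 68.0 and 181.

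In GMP against preGM 3 were at least 2-fold lower and 0 at least 2-fold higher, against 3.19% and 3.11% of all genes. Pdgfrb, another receptor of the class, read 95.7 in GMP and 535 in preGM, Socs3 read 23.5 and 237, and the kinase gene Fyn read 42.3 and 202. Of the receptors of this class, Flt3 and Pdgfrb were thus at least 2-fold lower in GMP, while Csf1r read 3916 in GMP and 3824 in preGM.

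In granulocytes against GMP 5 were at least 2-fold lower and 10 at least 2-fold higher, against 19.7% and 12% of all genes. Spred1, an inhibitor of RAS signalling, read 61.2 in granulocytes and 758 in GMP, and Cblb, a ubiquitin ligase that dampens receptor signalling, read 30.4 and 217. Pdgfrb read 15.9 in granulocytes and 95.7 in GMP, and Csf1r read 1772 and 3916. The highest ratios were those of Socs3, with 409 in granulocytes and 23.5 in GMP, Syk, with 2817 and 608, Sh2b3, with 984 and 237, and Akt1, with 886 and 212. Syk and Akt1 are kinases, and Sh2b3 is an adaptor that limits KIT and JAK2 signalling.

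In the KO 0 of the 34 were 2-fold different in either direction, where 0.307% of all genes were lower and 0.188% higher. Each of these genes was also followed at its enhancer with the highest mean signal, which is a stronger enhancer than the median one of the table. In KO over wild type preGM, H3K27ac there was at least 2-fold higher at 1 of 34 genes, Pdgfra, with 1.97 in KO preGM and 0.539 in wild type preGM, and at least 2-fold lower at 0, against 0.441% and 0.47% of all enhancers. PU.1 was at least 2-fold lower at 7 of 34 and higher at 0, against 6.15% and 0.0955%. As the 34 were picked for high signal, these shares are not those of like enhancers. Among them Csf1r read 16.7 in KO preGM and 39.1 in wild type preGM, and Dok1, an adaptor that restrains RAS signalling, read 10.9 and 24.9.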

How the data were processed

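The authors deposited 1 table of 44002 enhancers with build mm9 coordinates, assigned genes, classes and 32 value columns. The 15 signal columns used here hold 1 deposited value per group and match 30 listed libraries. The authors' pooling and scaling are unstated in the sources used here. The 6 expression columns were read as a linear score with no stated unit, as deposited by the authors; which libraries they were made from is not stated. Per the submitters' processing notes, Bowtie2, MACS2, bedtools, STAR, featureCounts and DESeq2 were used, with no versions. The other 11 value columns were not used, 6 because the labels do not describe their quantity and 5 because no listed sample matches. Deposited 0 or 1 stage flags were counted beside the stage classes and entered no comparison of signal.

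Log2 ratios were computed in Python 3.11.15 (pandas 2.3.3, numpy 2.4.6), with a pseudocount at the 25th percentile of the assay's values, rounded to 1 digit: 0.7 for H3K27ac, 2 for H3K4me1, 0.6 for PU.1, 30 for the stage expression set and 70 for the KO set. A ratio of at least 2-fold was counted, without a filter or a test; the counting was checked on simulated data. Enhancers named are, per gene, the 3 with the highest mean H3K27ac, the 2 at each end of each H3K27ac comparison and of each KO comparison, and the highest for PU.1 and CEBPA; others beside a small count or a split were chosen after their values were seen. Like genes are the 5 nearest by distance between log2 profiles centred over all 6 expression columns, and listed signalling genes are named, up to 4 in each direction. The 28 enhancers and the gene lists were chosen with earlier results of these data known. Alternatives varied the pseudocount, scaling, filter and fold. Promoter sequences are from RefSeq, where both gene symbols matched; Kit has 2 windows and the first was used. Colony-forming progenitors and monocytes were not analysed here.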

Additional observations from a re-analysis of the deposited data

How the results depend on the processing

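The expression ratios of Flt3 and Kit kept their sign when a median over genes was subtracted. A changed pseudocount cannot turn a sign, as the same amount is added to both values. Directions at enhancers near the median of the table did not all hold under subtraction. Of 308 enhancer ratios (28 enhancers in 11 comparisons), 44 had the other sign after subtraction of the table median, 10 of them for H3K27ac in GMP over preGM, where the median of the Kit enhancers was 0.23 before and -0.07 after and Kit-1 had 0.25 and -0.04. For H3K4me1 at Kit in granulocytes over GMP, 0 were lower and 2 higher before subtraction, and 7 lower and 0 higher after it. Of 254 values under alternatives 212 kept their side of the threshold or stayed within 1.5 times, and 42 moved, of which 2 are the lists of like genes under a centring chosen after seeing the data. Many of the 212 were counts of 0 that stayed at 0, so this number says little about the other counts. For each moved count the cause was not tested beyond the change of setting itself. With a fold of 1.5, H3K27ac counts in preGM over LSK were 1 higher for Flt3 and 2 for Kit, in GMP over preGM 4 lower and 1 higher for Flt3 and 2 higher for Kit, and in granulocytes over GMP 7 lower for Flt3 and 6 for Kit. H3K4me1 counts were then 1 lower for Kit in preGM over LSK, 1 higher for Flt3 in GMP over preGM, and 9 and 7 lower for Flt3 and Kit in granulocytes over GMP. PU.1 counts were 1 higher for Kit in preGM over LSK, 2 lower for Flt3 in GMP over preGM, and in the KO 1 higher for Flt3 and 1 lower for Kit. With a pseudocount 4 times smaller, H3K27ac counts were 1 higher for each gene in preGM over LSK, 2 higher for Kit in GMP over preGM and 6 lower for each gene in granulocytes over GMP; H3K4me1 counts in granulocytes over GMP were 9 lower for Flt3 and 7 for Kit, and PU.1 in GMP over preGM 1 lower for Flt3. With a pseudocount 4 times larger, 0 were counted for H3K27ac in Kit in GMP over preGM (higher) and in Flt3 in granulocytes over GMP and in the KO (lower), for H3K4me1 in granulocytes over GMP (Flt3 lower, Kit higher), and for PU.1 in Flt3 in preGM over LSK (higher) and in the KO (lower), and the log2 ratio of Flt3 expression in KO over wild type preGM was -1.03. Subtraction of the table median gave 0 higher for Kit in GMP over preGM and 4 lower for Kit in granulocytes over GMP for H3K27ac, 8 lower for Flt3, 7 lower and 0 higher for Kit in granulocytes over GMP for H3K4me1, and for PU.1 in Flt3 1 higher in preGM over LSK and 2 lower in the KO. With only enhancers at or above the median mean signal, 0 Kit enhancers were higher in H3K27ac in GMP over preGM and 0 Flt3 enhancers lower in H3K4me1 in granulocytes over GMP. No paired analysis was possible because each column is a pooled value that carries no replicate number, and for the same reason leaving out a replicate, which had been planned, was not run. Depth is unknown, so no counting error could be set beside low values.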
